A study of Mus musculus with 6 samples.

Results

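Long intergenic noncoding RNAs (lincRNAs) are transcripts of genes that lie outside protein-coding genes and are not known to encode a protein. The expressed lincRNAs described here were selected on the measured counts: a gene annotated as lincRNA in the deposited table, on chromosomes 1 to 19, with at least 5 CPM (the read count scaled to a common library total) in at least 1 library, leaving out H19 and Meg3. The selection found 80 genes among the 54532 of the table, and among 4913 lincRNA genes it could have taken, of which 1916 had at least 1 count. RNA was sequenced in 6 libraries made with an mRNA kit from 100 ng of total RNA each: 3 of circulating tumour cells (CTC), propagated from the blood of the mice, and 3 of tumour cells enriched after dissociating primary tumours (PT). All cells came from untreated Balb/c mice that carried 2208L, a transplantable mouse mammary tumour, and a CTC and a PT library with the same replicate number came from the same mouse. Only the CTC cells are described as propagated, so the effects of handling and of group cannot be told apart. The age of the mice and the number of cells per sample are not known here.

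lincRNAs as a class are transcribed and spliced like messenger RNAs, are mostly less abundant and vary more between cell types. Some act as scaffolds of nuclear bodies, some carry small nucleolar RNAs (snoRNAs) or microRNAs (miRNAs) in their introns or exons, some bind proteins or miRNAs in the cytoplasm, and for many no role is known. In mammary tumours MALAT1, NEAT1, PVT1 and the host of the miR-17-92 cluster are the members most often studied.

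Library totals ranged from 23845953 to 27897320 counts, and 3 counts, the limit that a count of 0 allows, corresponded to 0.108 to 0.126 CPM; this limit covers counting error only. The epithelial genes Epcam, Krt8, Krt18 and Cdh1 summed to between 2104 and 4823 CPM in each library. The 4 leukocyte genes summed to at most 2.53 CPM, and Cd52 and Laptm5 were at 0 in every library. For the 4 macrophage genes the sums in CTC replicates 1, 2 and 3 were 10.2, 23.02 and 4.01 CPM, against 2.81, 4.65 and 1.17 CPM in PT, with C1qa and Adgre1 at 0 throughout. For the 5 fibroblast genes they were 8.997, 50.5 and 175.1 CPM against 69.5, 17.2 and 38.7 CPM. The part of host cells in the values below was not tested, and in these bulk samples fewer cells with an RNA and less RNA per cell cannot be told apart.

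All 80 members together made up 0.193, 0.119 and 0.166% of the counts in CTC replicates 1, 2 and 3 and 0.133, 0.122 and 0.142% in PT. The share was highest in CTC replicates 1 and 3 and lowest in CTC replicate 2, so the groups overlapped. The 5 members with the highest mean level held between 43.2 and 56.8% of the members' counts in a library. Malat1 led in CTC replicates 1 and 3 and in PT replicate 3, and Gm26917 in the other libraries. Of the 80 members, 23 reached 5 CPM in all 6 libraries, 44 in at least 3 and 21 in only 1, and 40 stayed under 10 CPM in every library. The values that decided membership were close on either side of the minimum: 3930402G23Rik, Gm48604 and Gm21781 were just inside with 5.09, 5.23 and 5.26 CPM in their highest library, and Gm17501, Gm45250 and 4732496C06Rik just outside with 4.98, 4.94 and 4.88 CPM.

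**Figure D1:**
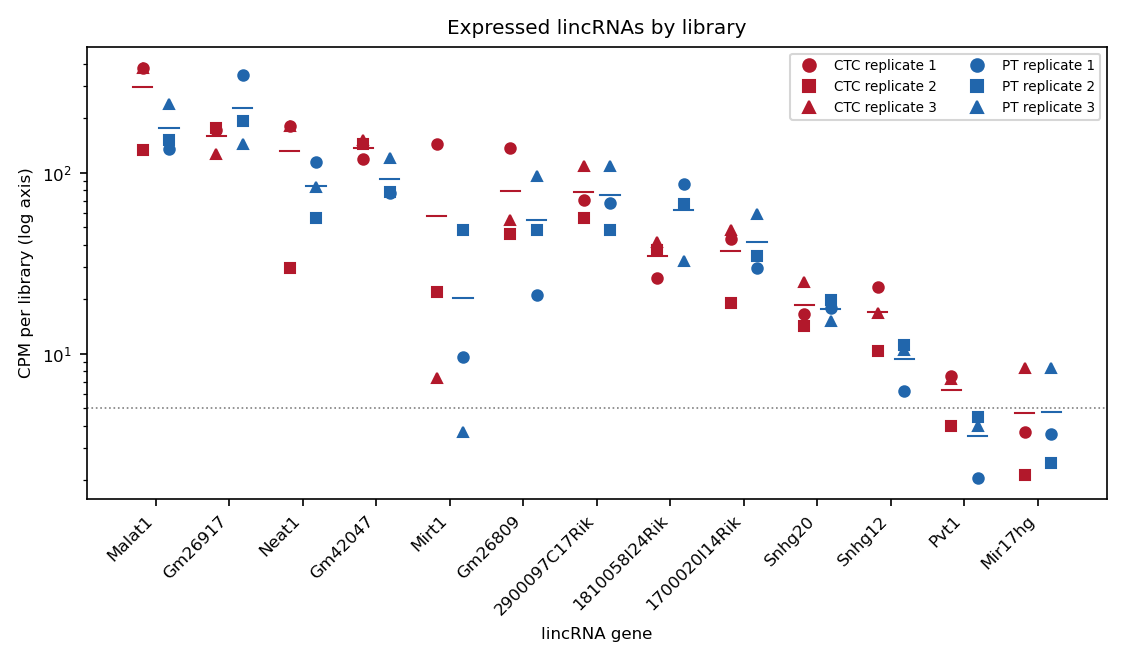
CPM of 13 expressed lincRNAs in each of the 6 libraries on a log axis, with 1 marker shape per replicate number, CTC in red and PT in blue; short lines are group means and the dotted line is the minimum of 5 CPM. Malat1 had the highest CPM of the members, up to 380.3, and for every gene shown the CTC and PT values overlapped.

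Malat1 and Neat1 lie next to each other on the minus strand of chromosome 19 (Malat1 at chr19:5795690-5802672, Neat1 at chr19:5824708-5845478, GRCm38). MALAT1 RNA gathers in nuclear speckles, bodies that store splicing factors, and NEAT1 RNA is the scaffold of paraspeckles, which hold back some RNAs and proteins in the nucleus. MALAT1 and the long form of NEAT1 are known to end not in a poly(A) tail but in a triple helix of U-rich stretches around an A-rich tract, left behind when a tRNA-like structure downstream is cut off. The short form of NEAT1 has a poly(A) tail, and the gene counts used here do not separate the forms. The libraries were made with an mRNA kit, and how fully it takes up RNAs without a poly(A) tail was not tested. The values of these genes are therefore levels in the libraries, which may differ from those in the cells. The stretches of 100 bases that end at the A-rich tract are shown because such ends set these forms apart from messenger RNAs. Capitals mark the runs of at least 10 bases that a search found in both, written 5′ to 3′ as DNA from GENCODE M21 transcripts (Malat1 chr19:5795982-5796081, Neat1 chr19:5824708-5824807, minus strand).
Malat1: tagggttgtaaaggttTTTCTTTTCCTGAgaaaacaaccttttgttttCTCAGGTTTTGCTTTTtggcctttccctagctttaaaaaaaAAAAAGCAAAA
Neat1: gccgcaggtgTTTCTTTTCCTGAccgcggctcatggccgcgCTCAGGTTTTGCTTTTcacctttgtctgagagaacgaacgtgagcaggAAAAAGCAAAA
The 3 shared runs had 13, 16 and 11 bases. The runs were taken from these 2 transcripts, so both hold them by construction. Of 141767 transcripts of the annotation, no other held all 3 runs on the transcript strand within 100 bases. The run of 16 bases alone occurred in 0.00141% of transcripts and the A-rich run in 0.436%. The annotated Neat1 transcript ended at the tract, and the annotated Malat1 transcript went on for 292 bases.

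Malat1 was at 380.3, 132.8 and 376.4 CPM in CTC replicates 1, 2 and 3 and at 135.3, 150.7 and 240.5 CPM in PT replicates 1, 2 and 3. It was high in CTC replicates 1 and 3, while CTC replicate 2 lay below all PT libraries. Its log2 fold change (CTC minus PT, here and below) was 0.69 ± 0.43 (SE), with an adjusted p of 0.735 in edgeR's quasi-likelihood test. Neat1 was at 181.8, 29.8 and 181.1 CPM in CTC and 114.6, 56.3 and 82.8 CPM in PT. CTC replicate 2 was again the lowest of all libraries, and the log2 fold change of 0.55 ± 0.61 had an adjusted p of 0.830 in edgeR. For Neat1 it was 0.25 with the replicate block (the mice as a term in the fit), 0.20 without CTC replicate 1 and 1.00 without CTC replicate 2. Per kb of deposited gene length, the mean level over the libraries was 33.8 CPM per kb for Malat1 and 5.19 CPM per kb for Neat1. The length used for Neat1, 20771 bases, is that of the long form, while the counts do not separate the forms. These 2 values therefore do not compare the amounts of the 2 RNAs.

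RNA of the genes for proteins of these bodies was found in all libraries. Of these genes 0 passed the test, beside 0 of all 13874 genes, and 54.1% of all genes had log2 fold changes above 0. Of 16 genes of paraspeckle proteins, among them Nono, Sfpq and Pspc1, whose products assemble on NEAT1, 0 were called, 11 had log2 fold changes above 0 and 5 below, and their median was 0.15 beside 0.05 over all 13874 genes tested. Of 12 genes of nuclear speckle proteins, such as the splicing factor Srsf2 and the scaffolds Son and Srrm2, 0 were called, 10 had log2 fold changes above 0 and 2 below, with a median of 0.17. The groups did not overlap for 1 of the 16 paraspeckle genes, beside 12.1% of all genes tested. This was Pspc1, at 38.9, 44.4 and 29.9 CPM in CTC and 12.02, 27.01 and 28.2 CPM in PT. Overlap was judged after TMM scaling, edgeR's correction for differences in composition. The closest pair, CTC replicate 3 and PT replicate 3, had scaling factors of 1.07 and 1.01, so scaling left these 2 values nearly equal. The separation of the groups for Pspc1 therefore rests on a very small margin.

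Other RNAs with a described role were expressed in every library. Norad, listed in the table as 2900097C17Rik (chr2:156388065-156392979, minus strand), is a cytoplasmic RNA known to bind the PUMILIO proteins, repressors of messenger RNAs, through many copies of a short motif. It was at 70.6, 55.9 and 108.5 CPM in CTC and 67.6, 48.1 and 108.6 CPM in PT, nearly the same within each mouse, highest in both libraries of mouse 3. The group means differed by a log2 fold change of 0.01 ± 0.36, with a 95% interval from -0.83 to 0.84. The PUMILIO motif was searched on the transcript strand as TGTANATA (any base at N, overlaps counted). Of its matches, 4 are shown with 8 bases on either side, in capitals, since the number of copies is what Norad is known for.
Norad match 1, chr2:156392314-156392337: aagtcctgTGTATATAatatgaaa
Norad match 4, chr2:156391442-156391465: gactgctgTGTATATAgtggacaa
Norad match 6, chr2:156391136-156391159: gtgtatacTGTATATAatggacaa
Norad match 10, chr2:156390211-156390234: tactactaTGTATATAggggacaa
Norad had 11 matches in 4915 bases, 2.24 per kb, against 0.123 per kb over the 6058 lincRNA genes of GENCODE M21. No lincRNA gene of the annotation had more, 13.9% of them had at least 1, and 25 of the 80 members had at least 1. These counts take no account of transcript length, so they do not show that members are richer in the motif. The member with the next highest number, 9 in 2527 bases, was Gm7292 on chromosome 6, and 77.5% of its runs of 50 bases also occur in Norad. Reads of these genes may therefore be split between the copies, and the counts of both are uncertain: 39.5% of Norad's runs of 50 bases occur in Gm7292. Gm7292 was at 8.60, 7.27 and 10.5 CPM in CTC and 4.38, 4.70 and 14.2 CPM in PT, and like Norad it was highest in PT replicate 3.

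Cyrano (1700020I14Rik in the table, Oip5os1 in RefSeq, chr2:119594297-119607502, plus strand) is a conserved RNA known to direct the destruction of the miRNA miR-7 through 1 extensively paired site. Both partners are shown, with capitals for the miR-7a seed (bases 2 to 8) and for the bases of the site that pair with miR-7a (site at chr2:119602137-119602161, plus strand; miR-7a from RefSeq, GRCm38.p6).
miR-7a-5p: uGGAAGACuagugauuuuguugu
Cyrano site: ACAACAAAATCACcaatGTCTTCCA
The site pairs the seed and its flank and 13 bases at the 3′ end of the miRNA, with 4 unpaired bases between. It was searched as those paired bases on the transcript strand with at most 8 bases between, and was found in 1 of 141767 transcripts. Cyrano was at 42.7, 19.1 and 48.1 CPM in CTC and 29.8, 34.5 and 59.3 CPM in PT, and again CTC replicate 2 was the lowest library. The log2 fold change was -0.23 ± 0.41 (edgeR adjusted p = 0.887). The mature miR-7 was not measured in these libraries.

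Pvt1, an RNA gene beside the oncogene Myc that is often amplified with it, was at 7.53, 4.001 and 7.22 CPM in CTC and 2.05, 4.45 and 3.98 CPM in PT. CTC replicates 1 and 3 lay above all PT libraries and CTC replicate 2 did not, with a log2 fold change of 0.78 ± 0.48 and an edgeR adjusted p of 0.735. Myc itself was at 159.9, 59.4 and 162.2 CPM in CTC and 119.8, 133.4 and 153.97 CPM in PT, lowest in CTC replicate 2, while Pvt1 was lowest in PT replicate 1. Neat1 and Pvt1 are known targets of p53, which arrests damaged cells. Of 8 genes listed as p53 targets, 6 could be tested and 0 were called, beside 0 of all 13874 genes. All 6 had log2 fold changes above 0 (median 0.77), beside 54.1% of all genes (median 0.05). With the replicate block 5 of 6 were above 0. The list was partly made of members, and it was written with earlier results of these data known. Among its coding genes, Mdm2 encodes the ligase that degrades p53. Mdm2 was at 109.8, 49.8 and 52.1 CPM in CTC and 19.6, 30.2 and 39.7 CPM in PT. Its groups did not overlap after TMM scaling, the only such gene of the list, beside 12.1% of all genes tested. On plain CPM those of Ccng1 lay apart too, beside 12.5% of all genes. Ccng1 was at 127.7, 63.4 and 58.5 CPM in CTC and 41.9, 54.1 and 47.6 CPM in PT. Cdkn1a, which encodes the cell cycle inhibitor p21, was at 32.9, 17.5 and 17.03 CPM and 18.3, 5.91 and 9.17 CPM with overlap. Whether p53 acted in these cells was not tested.

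Mirt1, a lincRNA first described in infarcted heart (chr19:53441212-53464796, minus strand), varied widely, at 143.9, 21.9 and 7.35 CPM in CTC and 9.54, 47.9 and 3.69 CPM in PT. Its level came mainly from CTC replicate 1. The log2 fold change of 1.45 ± 1.20 (edgeR adjusted p = 0.787) turned to -0.52 without that library and to -0.83 without mouse 1. The nearest coding gene is Dusp5, which encodes a phosphatase that inactivates ERK, with a start 64313 bases away on the other strand. Dusp5 was at 206.8, 69.2 and 66.3 CPM in CTC and 25.6, 69.8 and 34.2 CPM in PT, also highest in CTC replicate 1.

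Several abundant members are uncertain as noncoding RNAs or as single loci. Gm26917 (chr17:39843013-39846341, plus strand) was at 172.3, 176.8 and 127.1 CPM in CTC and 343.9, 193.4 and 143.4 CPM in PT, highest in PT replicate 1, with a log2 fold change of -0.58 ± 0.38 (edgeR adjusted p = 0.749). RefSeq places a pseudogene of 18S ribosomal RNA, Rn18s-rs5, 12 bases beyond its end on the same build. A gene of the table that overlaps the pseudogene, Gm42418 (chr17:39846958-39848788), had 0 counts in all 6 libraries; the 12 bases and the start of the pseudogene lie outside it. Whether ribosomal RNA reads entered the counts of Gm26917 was not tested. Gm10076, the member with the highest level per length (75.8 CPM per kb), is a pseudogene in RefSeq, and 69.9% of its runs of 50 bases occur in other genes, among them the ribosomal protein gene Rpl41. Gm42047, at 118.6, 143.2 and 150.3 CPM in CTC and 76.9, 78.04 and 119.9 CPM in PT, shares 72.9% of its runs of 50 bases with 10 other genes, so its counts can also hold reads of copies. Gm26809, at 136.4, 45.8 and 54.7 CPM in CTC and 21.1, 48.4 and 95.5 CPM in PT, shares 18.3% with 4.

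RefSeq lists 5 members as protein-coding under their own or a newer symbol: 1810058I24Rik, Tmem250-ps, Zfp469, Gm37494 (Gm33989) and Gm46430. 1810058I24Rik (chr6:35252654-35263496, plus strand) is known to encode a small mitochondrial protein. It was at 26.1, 37.1 and 41.1 CPM in CTC and 86.4, 67.1 and 32.6 CPM in PT. PT replicates 1 and 2 lay above all CTC libraries and PT replicate 3 within them, and the log2 fold change of -0.91 ± 0.41 had an edgeR adjusted p of 0.726. Tmem250-ps was at 31.9, 79.1 and 54.2 CPM in CTC and 71.2, 59.3 and 72.3 CPM in PT. Of the 80 spans, 13 overlap a protein-coding gene of the table, 7 of them on the same strand, and 21 overlap a RefSeq protein-coding gene. The sources used here do not state whether the counting kept the strand, so reads of such pairs cannot be told apart.

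Members that carry small RNAs were expressed at low to middle levels. The annotation places a snoRNA, small Cajal body RNA (scaRNA) or miRNA gene fully inside 11 members on the same strand, 6 with a snoRNA or scaRNA and 6 with a miRNA, Snhg20 having both. The values below count the host transcript, since the libraries do not measure the mature small RNAs. snoRNAs guide the modification of ribosomal and other RNAs and are cut from the introns of their hosts, whose spliced RNA is often destroyed by nonsense-mediated decay. Snhg12, host of Snora16a, Snora44, Snora61 and Snord99, was at 23.4, 10.4 and 16.8 CPM in CTC and 6.25, 11.2 and 10.4 CPM in PT, with a log2 fold change of 0.81 ± 0.42 (edgeR adjusted p = 0.726). Its CTC replicate 2 lay inside the PT range and the other CTC libraries lay above it. Snhg20 was at 16.6, 14.2 and 24.8 CPM in CTC and 17.8, 19.7 and 15.2 CPM in PT, a flat pattern with a log2 fold change of 0.01 ± 0.33. Snhg6, host of Snord87, was at 14.7, 5.96 and 18.7 CPM in CTC and 4.57, 6.67 and 15.8 CPM in PT. It overlaps the coding gene Mcmdc2, and both libraries of mouse 3 were the highest. Epb41l4aos was at 9.32, 6.53 and 7.39 CPM in CTC and 1.72, 4.36 and 7.46 CPM in PT, and PT replicate 1 was the lowest library for it as for Snhg6 and Snhg12.

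Neither the genes of proteins that act on snoRNAs nor those of nonsense-mediated decay passed the test, and 0 of all 13874 genes did. Over all genes tested, 54.1% had log2 fold changes above 0, with a median of 0.05. Of 8 genes of snoRNA-bound proteins, such as Fbl, the methylase of box C/D snoRNAs, and Dkc1, the pseudouridine synthase of box H/ACA snoRNAs, 0 were called, with 5 log2 fold changes above 0, 3 below and a median of 0.17. Of 10 genes of decay factors, such as the helicase Upf1 and the kinase Smg1, 0 were called, with 7 above 0, 3 below and a median of 0.16.

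Among miRNA hosts, Mir17hg (chr14:115042879-115046727, plus strand) carries the 6 miRNA genes of the miR-17-92 cluster, which promotes proliferation and is amplified in some cancers. The cluster's main mature products are shown by seed (bases 2 to 8, in capitals), because products with the same seed are expected to share targets (RefSeq, GRCm38.p6, chr14:115043684-115044496).
miR-17-5p: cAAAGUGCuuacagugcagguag
miR-20a-5p: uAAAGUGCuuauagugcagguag
miR-18a-5p: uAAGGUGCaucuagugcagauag
miR-19a-3p: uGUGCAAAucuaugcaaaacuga
miR-19b-3p: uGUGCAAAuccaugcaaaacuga
miR-92a-3p: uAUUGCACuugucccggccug
miR-17 and miR-20a share a seed, miR-19a and miR-19b share another, and miR-18a and miR-92a each have their own. The host was at 3.69, 2.12 and 8.35 CPM in CTC and 3.58, 2.47 and 8.29 CPM in PT. The CTC and PT values were close to each other within each mouse and highest in mouse 3, and the log2 fold change was -0.09 with a 95% interval from -1.60 to 1.42.

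AL805899.1 (chr4:88909855-88938521, minus strand) contains Mir31, whose product is known for restraining metastasis of breast cancer cells and is shown for that reason, seed in capitals.
miR-31-5p (chr4:88910614-88910635): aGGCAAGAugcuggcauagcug
Its host was at 15.4, 11.4 and 22.4 CPM in CTC and 8.80, 5.91 and 11.6 CPM in PT. With libraries scaled by TMM (the trimmed mean of M-values, edgeR's correction for differences in composition) the CTC values of 15.3, 11.6 and 20.97 CPM all lay above the PT values of 9.24, 6.05 and 11.5 CPM, by a narrow margin between CTC replicate 2 and PT replicate 3, which overlapped without the scaling. The log2 fold change was 0.84 ± 0.40, with an edgeR adjusted p of 0.726. Snhg20, described above with the snoRNA hosts, also holds a miRNA gene, Mir6516. The remaining miRNA hosts, C130071C03Rik with Mir9-2, 6720427I07Rik with Mirlet7d and Gm37233 with Mir5103, stayed between 2.04 and 9.60 CPM in every library. Mirt1 holds no miRNA gene of the annotation. Of 7 tested genes that process MALAT1 or miRNAs, such as Drosha and Dicer1, the nucleases that cut miRNA precursors, 0 were called. They had 6 log2 fold changes above 0, 1 below and a median of 0.29. Over all 13874 genes tested, 0 were called and 54.1% were above 0, with a median of 0.05.

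Across the whole set, no lincRNA passed edgeR's quasi-likelihood test for a difference between CTC and PT. Of the 77 members that passed its filter on low counts (all but Gm12415, 3930402G23Rik and Prr33), 0 were called at an adjusted p under 0.05, beside 0 of all 13874 genes (0.0%). The smallest adjusted p was 0.726 among members and 0.611 among all genes. At an unadjusted p under 0.05, edgeR gave 8 members (10.4% of 77), against 6.62% of all genes: AC125351.1, Gm15473, Gm48709 and B230217O12Rik higher in CTC, and Gm13387, Gm4544, Gm26694 and Gm26804 lower. Of these 8, all but Gm13387 reached 5 CPM only in the group where they were higher, so the rule that chose the members favours such genes and the share is a description only. A fit with the matched mice as a replicate block and limma-voom also called 0 members and 0.0% of all genes. The spread between libraries of a group, as the SD of log2 CPM, had a median of 0.74 for the tested members and 0.48 for all genes, and the 95% interval of a member's log2 fold change had a median width of 2.64. With an interval of that width, a log2 fold change has to exceed 1.32 in size for the interval to miss 0, before any adjustment.

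The members' fold changes lay more often above 0 than below. Of 77, 54 (70.1%) had log2 fold changes above 0, beside 54.1% of all genes, and their median was 0.23 beside 0.05. The 5 CPM rule bears on this count: 17 tested members reached 5 CPM only in CTC libraries, all 17 above 0, and 6 only in PT libraries, 1 of them above 0. Of the 54 that reached it in both groups, 36 were above 0, with a median of 0.12. The median deviation of the members from their own mean was 0.22 in CTC replicate 1 and 0.13 in CTC replicate 3, but -0.13 in CTC replicate 2, where it was close to the -0.12 of PT replicate 2. It was -0.23 in PT replicate 1 and 0.01 in PT replicate 3. The median log2 fold change was 0.40 without CTC replicate 2, 0.53 without PT replicate 3, 0.13 without CTC replicate 1 and 0.10 without mouse 1, while 44 of 77 were above 0 without CTC replicate 3. Since members share libraries, these counts are a description of the 6 libraries.

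**Figure D2:**
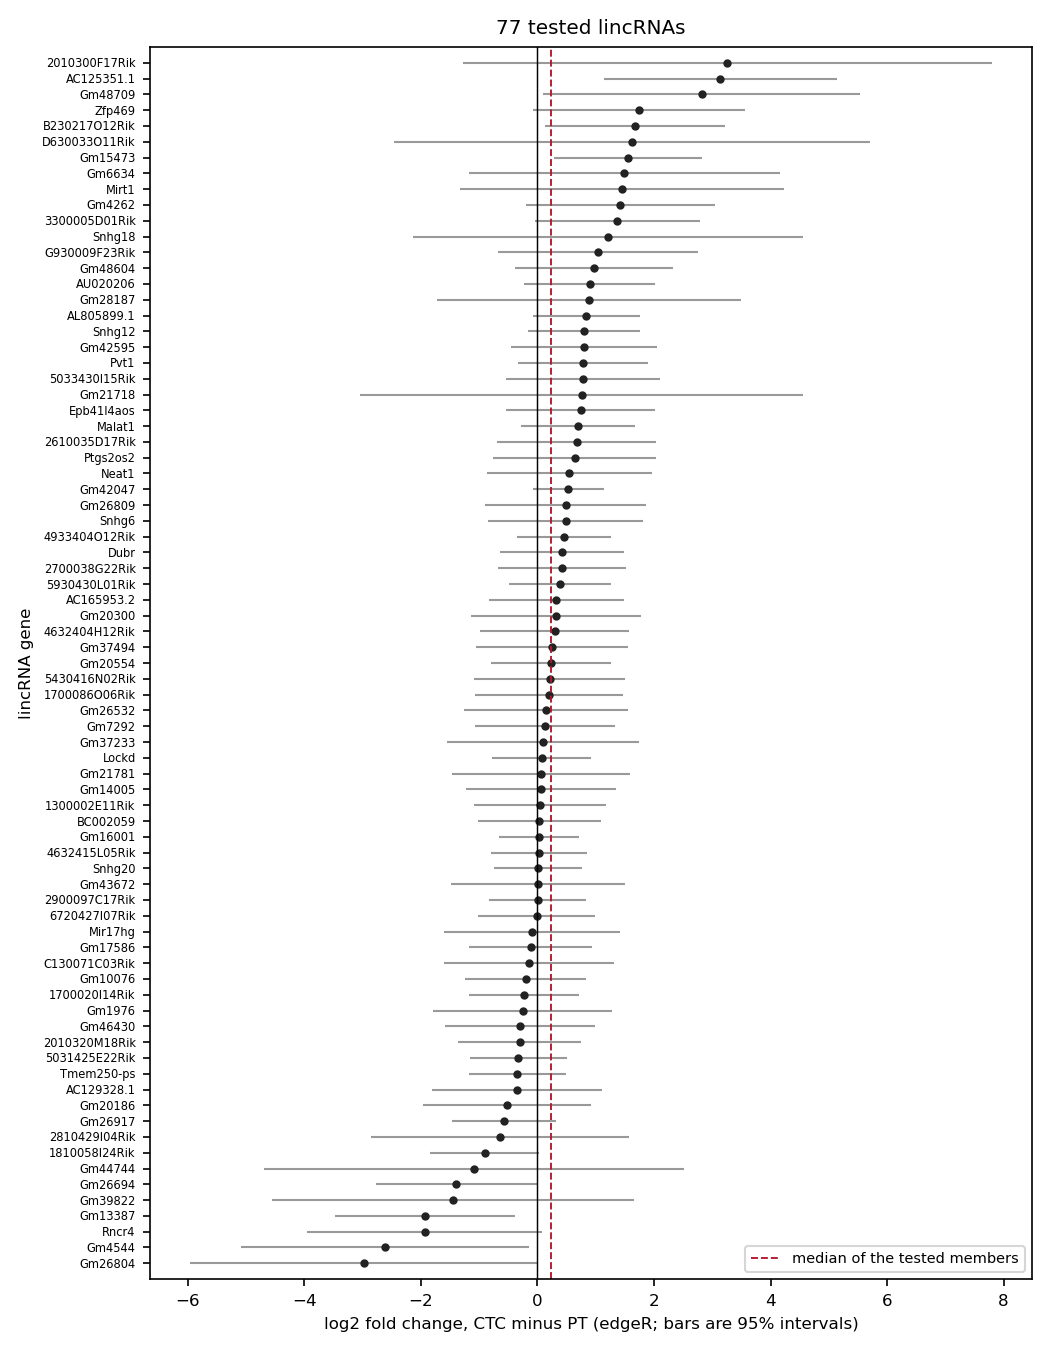
Log2 fold change of the 77 tested lincRNAs, CTC minus PT, with 95% intervals from the edgeR fit; the dashed line is their median of 0.23. 54 points lie to the right of 0, and the intervals that miss 0 are those of the 8 genes with an unadjusted p under 0.05.

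The groups did not overlap on TMM-scaled CPM for 6 of the 77 tested members (7.79%), against 12.1% of all genes. CTC lay above PT for 4 of them, against 5.95% of all genes, and below PT for 2, against 6.16%. Of the 6, all but AL805899.1 reached 5 CPM in 1 group only. Without the scaling, on plain CPM, the groups lay apart for 3 members, AC125351.1, Gm15473 and Gm26804, and for 12.5% of all genes.

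AC125351.1 (chr12:81717830-81720052, minus strand) had the largest fold change of these, at 10.4, 4.001 and 1.34 CPM in CTC and 0.548, 0.881 and 0.293 CPM in PT. CTC replicate 1 was far above the other libraries, and CTC replicate 3 was close to PT replicate 2. Its log2 fold change was 3.14 ± 0.86 (95% interval 1.14 to 5.13), and edgeR gave it an adjusted p of 0.726, or 0.762 with the replicate block. DESeq2, another count model, called it with an adjusted p of 0.0130, the 1 called among 76 members against 0.595% of all genes. Over all alternatives run, its adjusted p ranged from 0.00845 (DESeq2 with the replicate block) to 1, and its log2 fold change from 2.17 to 3.69. It lies on the same strand as Map3k9, which encodes a kinase of the JNK pathway, and inside the span that RefSeq gives that gene. Map3k9 was at 21.7, 16.04 and 4.93 CPM in CTC and 21.3, 7.42 and 1.34 CPM in PT, in an order that differed from that of AC125351.1 mainly in PT replicate 1. Whether the counts come from a longer end of the Map3k9 transcript was not tested.

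Gm15473 (chr6:17058806-17064996, minus strand) was at 8.60, 10.6 and 5.14 CPM in CTC and 1.35, 3.98 and 2.72 CPM in PT, with a log2 fold change of 1.56 ± 0.55. Every CTC library lay above every PT library. It starts 153 bases from Tes, which encodes a focal adhesion protein, on the other strand. Tes was at 3152, 4929 and 3233 CPM in CTC and 1829.7, 3988 and 4467 CPM in PT, with overlapping groups. Gm48604 was at 5.23, 3.47 and 3.76 CPM in CTC and 0.877, 1.80 and 3.52 CPM in PT, and its groups lay apart only after scaling, with 3.52 CPM in CTC replicate 3 and 3.49 CPM in PT replicate 3. Gm48604 overlaps the coding gene Hinfp on the same strand. On the lower side, Gm26694 was at 0.968, 1.55 and 1.75 CPM in CTC and 5.41, 3.56 and 1.68 CPM in PT, apart only after scaling (1.64 and 1.66 CPM in the closest pair), and its span holds many coding genes, Stub1 and Rab40c among them. Gm26804 had 0, 5 and 20 counts in the CTC libraries against 146, 25 and 29 in the PT libraries, mostly in PT replicate 1.

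**Figure D3:**
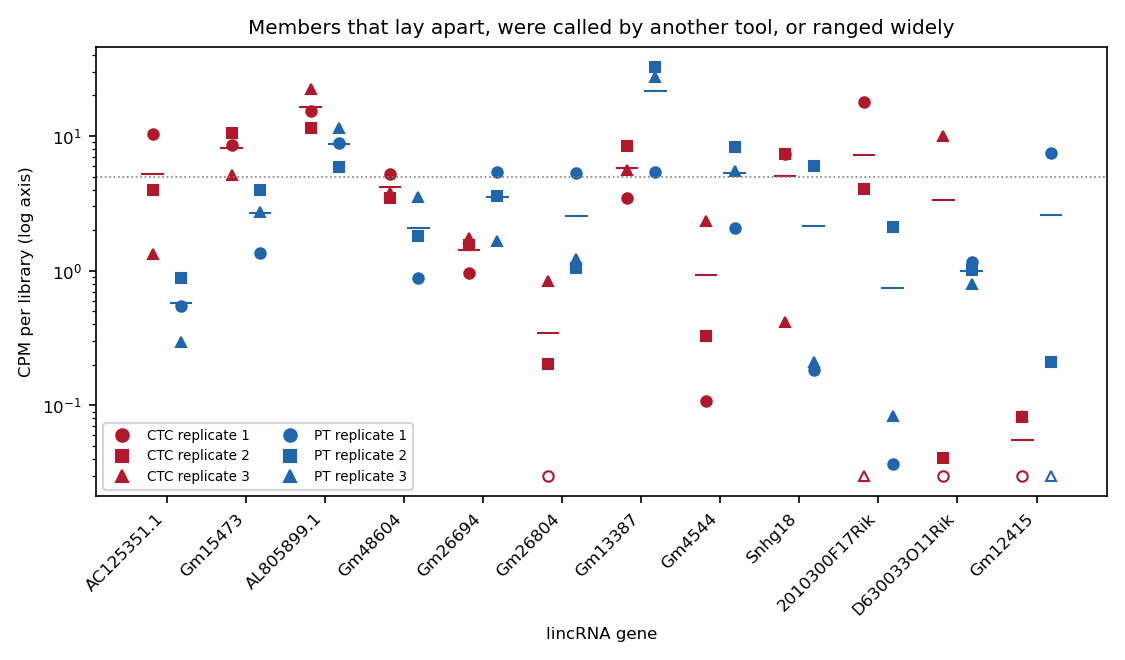
CPM by library on a log axis for 12 lincRNAs whose CTC and PT values lay apart, that another tool called or whose libraries ranged widely; open markers at the bottom stand for 0 counts. Gm15473 lay at 5.14 to 10.6 CPM in CTC and 1.35 to 3.98 CPM in PT, and Gm26804, 2010300F17Rik, D630033O11Rik and Gm12415 each have a library at 0.

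DESeq2 with the replicate block called 3 members of 80, against 1.72% of all genes: AC125351.1, Gm13387 and Gm4544. AC125351.1 reached 5 CPM only in CTC and Gm4544 only in PT, so these counts too depend on how members were chosen. Gm13387 was at 3.44, 8.41 and 5.59 CPM in CTC and 5.44, 32.3 and 27.2 CPM in PT, so PT replicates 2 and 3 stood above the rest and PT replicate 1 lay among the CTC libraries. Its log2 fold change was -1.93 ± 0.67, and the PT library exceeded the CTC library of the same mouse in all 3 mice. Gm4544 had 3, 8 and 56 counts in the CTC libraries against 57, 198 and 131 in the PT libraries, again higher in PT within each mouse, and a log2 fold change of -2.61 ± 1.07. With the block, edgeR gave these 2 genes adjusted p-values of 0.762 and 0.762; over all alternatives these ranged from 0.0186 to 1 and from 0.00482 to 1. Without the filter on low counts, edgeR called 0.728% of all genes and 1 of the 80 members, Gm12415, which had 0, 2 and 2 counts in the CTC libraries against 206, 5 and 0 in the PT libraries, so the call rests on PT replicate 1.

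Members were most often highest in CTC replicate 1. Of the 80 members, 28 (35.0%) were highest in CTC replicate 1, beside 24.6% of all genes tested, and 11 (13.8%) in PT replicate 1, beside 20.4%. The other libraries held 8 to 12 members each. The libraries of mouse 3 were the 2 highest for 13 members (16.2%), among them Norad, Gm7292, Snhg6 and Mir17hg, beside 10.2% of all genes. For 35 members (43.8%) the highest library was at least 4 times the lowest, beside 24.3% of all genes, and for 16 (20%) at least 16 times, beside 6.7%. The rule took members by their highest library, so neither this range nor the library that was highest is independent of the choice.

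**Figure D4:**
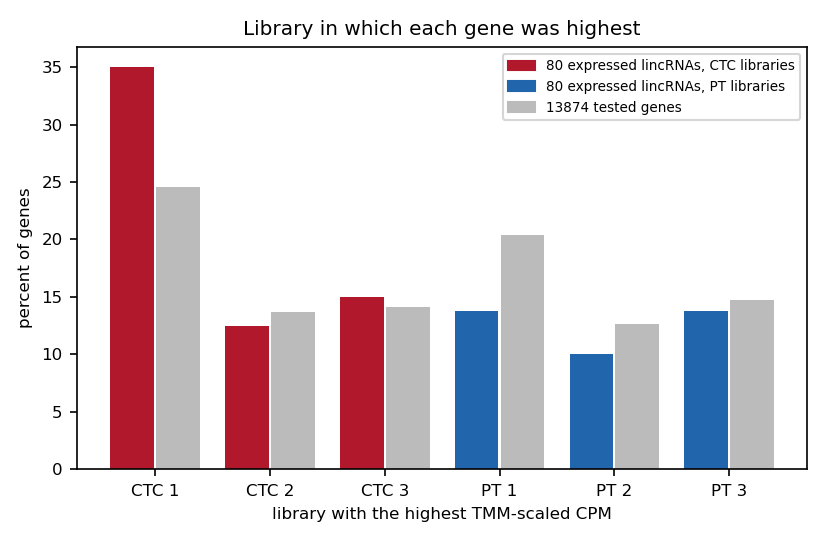
Percent of genes that were highest in each library, by TMM-scaled CPM, for the 80 expressed lincRNAs (red for CTC, blue for PT) and all 13874 tested genes (grey). CTC replicate 1 holds 35.0% of the lincRNAs and 24.6% of all genes, and the other libraries hold 10 to 15% of the lincRNAs.

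Of the tested members, those with the widest range were near 0 in some libraries. 2010300F17Rik (chr11:96712982-96747436, inside the RefSeq span of Skap1) had 495, 99 and 0 counts in the CTC libraries against 1, 50 and 2 in the PT libraries. The log2 fold change, 3.26 ± 1.96, dropped to 1.45 when CTC replicate 1 was left out and reached 6.77 when PT replicate 2 was. D630033O11Rik had 0, 1 and 240 counts in the CTC libraries against 32, 24 and 19 in the PT libraries, with CTC replicate 3 far above the other libraries and the other CTC libraries below all of PT. Gm21718 had 0, 15 and 195 counts in the CTC libraries against 10, 93 and 12 in the PT libraries, and Gm39822 had 0, 27 and 48 and 15, 45 and 137. Gm44744 had 0, 15 and 153 counts in the CTC libraries against 288, 38 and 33 in the PT libraries, high in CTC replicate 3 and PT replicate 1.

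lincRNAs often start beside a coding gene and share its promoter region, so each member was set beside the coding gene with the nearest start. A start on the opposite strand, pointing away, lay within 2000 bases for 12 members. Of these 12 pairs, 10 (83.3%) had log2 fold changes of the same sign, beside 38 of 65 (58.5%) for the other tested members and 63.7% for coding genes and their nearest coding gene. The highest library was shared in 4 of 12 pairs (33.3%), 32.5% of all 80 members and 33.1% of coding genes. Across the 77 members the log2 fold changes of lincRNA and neighbour correlated with Pearson's r of 0.25, against 0.28 across 12015 coding genes and their neighbours; all these values come from the same 6 libraries.

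**Figure D5:**
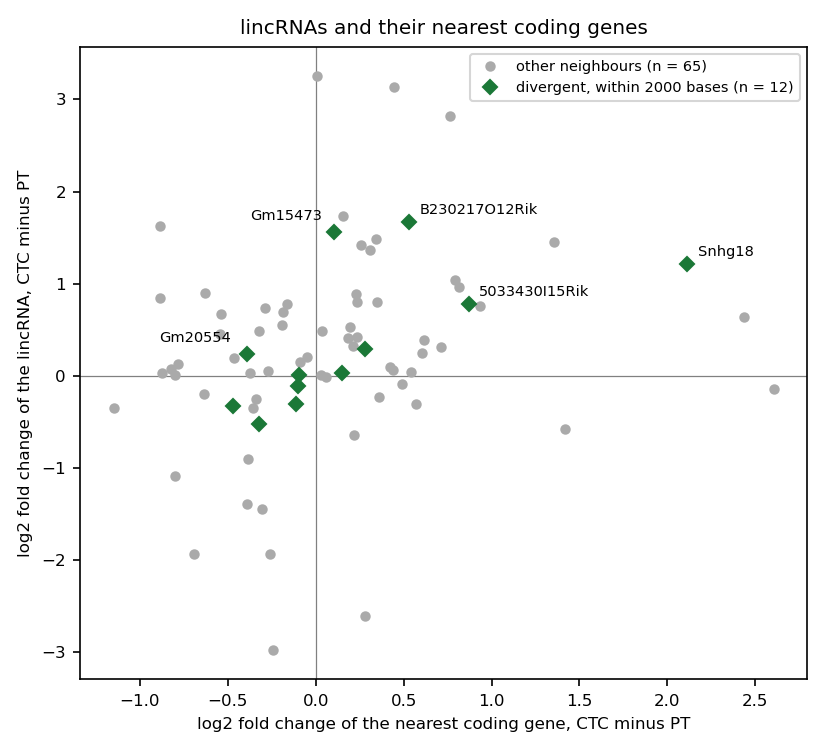
Log2 fold change (CTC minus PT) of each of 77 lincRNAs against that of its nearest coding gene; green diamonds are the 12 members that start within 2000 bases of it on the opposite strand and point away. Snhg18 with Sema5a is the pair farthest to the upper right among them, and 10 of the 12 have the same sign.

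The closest pairs were mostly flat. Gm16001 starts 33 bases from Ogfod2 and was at 25.7, 23.02 and 19.2 CPM in CTC and 23.1, 22.02 and 18.8 CPM in PT, the steadiest of them. 2010320M18Rik starts 102 bases from Pik3r2, which encodes a regulatory subunit of PI3K, and was at 6.49, 10.9 and 6.05 and 9.17, 12.8 and 5.99 CPM. Gm17586, 168 bases from Mafg, which encodes a small Maf transcription factor, was at 6.20, 8.98 and 5.55 and 9.13, 8.09 and 4.36 CPM. 5031425E22Rik, 172 bases from Kmt2e, was at 9.39, 9.55 and 9.06 and 8.66, 14.8 and 10.3 CPM. None of the 4 had a log2 fold change beyond 0.33 in size.

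Snhg18, host of Snord123, was the member of these pairs with the widest range between libraries. It starts 148 bases from Sema5a, which encodes a guidance protein of the semaphorin family. Snhg18 was at 7.31, 7.35 and 0.418 CPM in CTC and 0.183, 5.997 and 0.209 CPM in PT, present in CTC replicates 1 and 2 and PT replicate 2 and near 0 in the rest. Sema5a was at 18.7, 8.25 and 0.334 CPM in CTC and 1.06, 3.77 and 1.34 CPM in PT, highest in the same 3 libraries. For Snhg18 the log2 fold change was 1.21 ± 1.44 (edgeR adjusted p = 0.835), and it was 1.91 with the replicate block, 0.67 without PT replicate 3 and 4.61 without PT replicate 2. The promoter is printed because both genes start inside it (RefSeq, chr15:32244613-32244912, GRCm38.p6, minus strand, 250 bases before to 50 after the start, the last 50 in capitals).
Snhg18 promoter: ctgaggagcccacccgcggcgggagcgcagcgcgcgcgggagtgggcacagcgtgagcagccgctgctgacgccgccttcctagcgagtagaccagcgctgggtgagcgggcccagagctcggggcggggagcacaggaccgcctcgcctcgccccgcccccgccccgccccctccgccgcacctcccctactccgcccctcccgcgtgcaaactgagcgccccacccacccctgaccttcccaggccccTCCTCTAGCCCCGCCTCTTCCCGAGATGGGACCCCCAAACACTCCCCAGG
It holds 31 CG dinucleotides, and 10.6% of 32851 RefSeq promoters of this length hold at least as many; the median is 7. Methylation was not measured here, and the count describes the letters of the window.

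The other named neighbours gave no common pattern. Lockd, which starts 8691 bases from the cell cycle inhibitor gene Cdkn1b, was at 11.3, 12.9 and 8.64 CPM in CTC and 8.22, 12.4 and 9.59 CPM in PT, while Cdkn1b was at 51.7, 57.2 and 72.7 and 73.8, 141.995 and 93.1 CPM. Ptgs2os2 lies 64917 bases from the start of Ptgs2, the gene of the inducible cyclooxygenase, and was at 16.8, 6.45 and 10.1 CPM in CTC and 12.3, 4.53 and 3.48 CPM in PT. Ptgs2 was at 1271, 123.7 and 51.4 CPM in CTC and 135.7, 108.8 and 10.9 CPM in PT, and both genes were highest in CTC replicate 1 and lowest in PT replicate 3. Gm14005, known as Morrbid for its effect on survival of myeloid cells, was at 8.17, 10.5 and 8.64 CPM in CTC and 2.89, 13.8 and 8.80 CPM in PT, lowest in PT replicate 1. These 3 members were named after their values were seen. For 32 of the 80 members, the coding genes within 2 Mb had a median deviation of at least 0.5 in size in some library. Deviations were in log2 CPM from each gene's own mean, and both directions were counted. Some windows held only 3 coding genes, and nearby members such as Gm26809 and Gm20186 shared a window. The same share was not computed for other genes, so this count is a description only.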

How the data were processed

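RNA was sequenced in 3 CTC and 3 PT libraries. The deposited table holds raw read counts (whole numbers) for 54532 genes and gene lengths in bases. The submitters' processing notes name HISAT2 and the builds GRCm38 and mm10; the read counter, annotation release and strand setting are not given in the sources used. Library totals were 23845953 to 27897320 counts. CPM is the count over the library total, and CPM per kb divides it by the deposited gene length.

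The comparison used edgeR 4.0.16 (R 4.3.3; glmQLFit and glmQLFTest, TMM scaling, default filterByExpr by group, 13874 genes), with Benjamini-Hochberg adjustment over all genes tested, a threshold of 0.05 and log2 fold changes as CTC minus PT. The F statistic gave the standard errors. DESeq2 1.42.0, limma-voom (limma 3.58.1), other scalings and filters, and leaving out libraries or mice were alternatives. The scripts were tested on simulated data. The labels match same-numbered libraries to 1 mouse, which makes the samples paired. Over genes, the correlation of such pairs' deviations from the group mean was -0.015 for replicate 1, 0.157 for replicate 2 and 0.298 for replicate 3. The main test did not use the pairing, and a replicate block was an alternative. Log2 CPM used a prior count of 2.

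Neighbours and hosted small RNAs were found from coordinates of the table and GENCODE M21 (GRCm38), and names, promoters and miRNAs from RefSeq (GRCm38.p6), where 56 members matched by symbol or synonym and 44 had a promoter entry. Shared sequence was searched as runs of 50 bases in each member's longest transcript against all transcripts.

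The members and gene lists were chosen with earlier results of these data known. Named were members with a listed role, the 6 with the highest CPM per kb, those without overlap between groups, the 6 of widest log2 CPM range among the 77 tested, those called by any of the count tests with or without the block, those next to the CPM minimum and the 6 closest to an opposite-strand coding start, with Gm12415 and some neighbours added after their values were seen.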

Additional observations from a re-analysis of the deposited data

How the results depend on the processing

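The number of lincRNAs called, 0 in edgeR, was also 0 with the replicate block, limma-voom, RLE and upper-quartile scaling, a filter of 1 CPM in 3 libraries and every fit that left out a library or a mouse. It was 1 in DESeq2, 3 in DESeq2 with the replicate block and 1 without a filter. The median log2 fold change of 0.23 ranged from 0.13 to 0.53 when a library was left out, with 0.40 without CTC replicate 2 and 0.53 without PT replicate 3, from 0.10 to 0.26 without a mouse, and from 0.19 to 0.23 under the other fits. The count above 0, 54, ranged from 44 to 56. The pairing changed no other call of a named member: the block gave 49 members above 0 and a median of 0.21. Members without overlap between groups numbered 6 with TMM or upper-quartile scaling (4 above and 2 below). They numbered 6 with RLE scaling (3 above and 3 below) and 3 on plain CPM (2 above and 1 below). With 1 library left out they numbered 7 to 22 (5 to 17 above and 2 to 7 below), and without mouse 1, 2 or 3 they numbered 17, 17 and 32 (9, 13 and 22 above; 8, 4 and 10 below), since smaller groups overlap less: over all genes tested the shares were 15.5 to 30.2% with 1 library left out and 25.4, 34.6 and 47.9% without mouse 1, 2 or 3, beside 8.75 to 27.5% and 21.2, 21.2 and 40.0% of the members. The set held 173 genes at a minimum of 2 CPM, 40 at 10 CPM and 44 when 5 CPM was asked in at least 3 libraries. Mirt1 reversed to -0.52 without CTC replicate 1 and to -0.83 without replicate 1 of both groups, as its signal came mainly from that library; over single libraries left out its log2 fold change ranged from -0.52 to 3.03. The other log2 fold changes kept their sign with any 1 library left out, among the 16 genes recomputed, but ranged from 0.20 to 1.00 for Neat1, 0.45 to 1.02 for Malat1, 0.67 to 4.61 for Snhg18, 1.45 to 6.77 for 2010300F17Rik, 0.61 to 1.56 for Gm48604, 0.48 to 1.03 for Snhg12, -4.64 to -1.76 for Gm26804, -4.60 to -2.09 for Gm4544, -1.74 to -0.92 for Gm26694 and -1.23 to -0.56 for 1810058I24Rik. No partner list gained a call with the block. With 3 libraries a group, and 40 members under 10 CPM throughout, small differences were not detectable.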
